A study of Mus musculus with 16 samples.

Results

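The 10 genes described here handle iron or make heme, and they were taken by symbol: the hepcidin hormones Hamp and Hamp2, their inducer Bmp6, the transferrin receptors Tfrc and Tfr2, the exporter Slc40a1, the ferritin chains Fth1 and Ftl1, and the heme enzymes Alas1 and Fech. Each was found once in the liver table and once in the fat table, so they are 10 of the 22322 gene identifiers listed there. The RNA came from DIO mice, that is, mice with diet-induced obesity, and every animal group carries that background. The treated group, labelled H100, was given halofuginone into the peritoneum, 100 μg/kg at intervals of 2 days, and tissue was taken at 8 weeks. The vehicle group, labelled HFD, received vehicle on the same plan. Each group of liver had 5 libraries and each group of white adipose tissue had 3. Strain, sex, age, fat depot, and whether a liver and a fat library came from the same mouse are not given in the labels. The labels also do not say that libraries of a group came from separate animals. The p-values therefore set group differences against the spread between these libraries, which may not be the spread between mice.

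Hepcidin is a peptide hormone made mostly by hepatocytes. It binds ferroportin, the product of Slc40a1 and the known cellular exporter of iron, and removes it from the cell surface, so plasma iron falls. BMP6 from liver endothelial cells signals through SMAD proteins to switch on Hamp, and interleukin-6 does so through STAT3. Inside cells, the iron regulatory proteins bind a stem-loop called the iron-responsive element: bound before the coding sequence it blocks translation, and bound after the coding sequence of Tfrc it protects the messenger RNA when iron is scarce. Heme synthesis starts with 5-aminolevulinate synthase, encoded by Alas1 in most tissues and Alas2 in erythroid cells, and ends when ferrochelatase (Fech) inserts iron. Halofuginone inhibits the glutamyl-prolyl-tRNA synthetase Eprs and so sets off the amino acid starvation response.

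The iron-responsive elements of these genes are printed because they are where iron acts on several of these messages after transcription. The pattern searched was C, 5 bases, the loop CAGTG followed by any base but G, and 5 bases that pair with the first 5 (G with T allowed), on the sense strand of the longest complete coding transcript of each gene in GENCODE M21 (GRCm38). Such a match lay before the coding sequence in 0.0781% of 21760 genes and after it in 0.418%. Fth1, Ftl1 and Slc40a1 had 1 match before the coding sequence, and Tfrc had 4 matches after it. Hamp, Hamp2, Bmp6, Tfr2 and Alas1 had 0, and no count is given for Fech. The loop is in capitals below, 5′ to 3′, in windows of 29 bases.
Fth1, before the coding sequence, chr19:9982732-9982760: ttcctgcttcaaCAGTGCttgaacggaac
Ftl1, before the coding sequence, chr7:45459779-45459807: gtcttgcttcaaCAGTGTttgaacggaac
Slc40a1, before the coding sequence, chr1:45925465-45925493: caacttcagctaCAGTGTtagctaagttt
Alas2, not a member but the erythroid partner of Alas1, before the coding sequence, chrX:150547458-150552149, split by an intron: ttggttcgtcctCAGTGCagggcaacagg
Tfrc, after the coding sequence, chr16:32631219-32631247: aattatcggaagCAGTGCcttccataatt
Tfrc, chr16:32631598-32631626: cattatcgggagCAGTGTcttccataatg
Tfrc, chr16:32631663-32631691: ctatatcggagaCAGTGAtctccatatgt
Tfrc, chr16:32631710-32631738: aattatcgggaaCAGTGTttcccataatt
The Fth1, Tfrc and Alas2 windows lie on the plus strand of GRCm38, and those of Ftl1 and Slc40a1 on the minus strand. The Tfrc elements act on messenger RNA stability, and the elements before the coding sequence act on translation. Stability, translation and iron were not measured here.

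The hepcidin promoters are printed because Hamp and Hamp2 are near copies that moved in opposite directions in liver. The 250 bases before each start come from RefSeq on GRCm38.p6, and both genes lie on the minus strand. The motifs searched were GGCGCC, the core of the BMP response element, and TTCNNNGAA, a STAT site. Both read the same on either strand, and they did not overlap. The motifs found are in capitals, 5′ to 3′.
Hamp, chr7:30944030-30944279: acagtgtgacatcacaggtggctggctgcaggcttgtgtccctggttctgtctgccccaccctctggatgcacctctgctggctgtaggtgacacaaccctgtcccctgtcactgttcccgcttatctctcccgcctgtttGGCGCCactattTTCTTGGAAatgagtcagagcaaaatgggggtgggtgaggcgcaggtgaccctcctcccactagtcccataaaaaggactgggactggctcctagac
Hamp2, chr7:30924182-30924431: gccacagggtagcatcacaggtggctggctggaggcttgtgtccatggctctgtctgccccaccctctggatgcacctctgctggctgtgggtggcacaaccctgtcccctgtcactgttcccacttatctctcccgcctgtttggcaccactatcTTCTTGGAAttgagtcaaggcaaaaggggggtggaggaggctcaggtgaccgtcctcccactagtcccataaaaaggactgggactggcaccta
Hamp held GGCGCC with its first base at -109 and TTCNNNGAA at -97, counted from the start of transcription. Hamp2 held TTCNNNGAA at -94 and no GGCGCC. At the aligned place the Hamp2 letters were ggcacc, which is the substitution G4A counted from the first base of the element, Hamp first. Of 32851 windows of the same length in the table, 9.59% held GGCGCC and 7.02% held TTCNNNGAA. The promoters were identical in 89.7% of aligned columns and the transcripts in 88.8%. A match is a stretch of letters and shows no binding. The part of this motif difference in the Hamp and Hamp2 values was not tested.

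The depth was 20309956 to 31980683 counts per liver library and 17070614 to 21387799 per fat library. The tissue labels matched their markers: a sum of 8 hepatocyte genes was at 120000 to 138100 CPM (a gene's count divided by the library total and its TMM factor, times 1e6) in vehicle livers, at 53290 to 114500 CPM in treated livers and at 3.71 to 9.15 CPM in fat, and Adipoq, Plin1 and Lep were at or under 3 counts in every liver library. The liver library labelled halofuginone 1 stood apart from its group. On the first principal component, which held 56.2% of the variance, it sat at -23.3, beside the vehicle libraries at -36 to -28.3, while halofuginone 2 to 5 sat at 32.4 to 58. Its sum of 5 genes of the amino acid response was 147.5 CPM, inside the vehicle range of 117.8 to 157.9, against up to 955.5 in its group. In fat, vehicle 3 had the highest macrophage marker sum, 10630 CPM, and the lowest adipocyte marker sum, 11430 CPM. Results that rest on these libraries are given with and without them.

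In liver, halofuginone raised Hamp and lowered Hamp2, Tfrc and Alas1. A gene passed the test when its p from edgeR's quasi-likelihood test, adjusted by Benjamini-Hochberg over all genes tested, was under 0.05. These 4 of 10 members compare with 23.2% of the 12311 genes tested, 12.7% higher and 10.5% lower. In 2 members, Fth1 and Alas1, every halofuginone library was below every vehicle library, where 11.7% of all genes had groups that did not overlap. Without halofuginone 1, 7 of 10 members passed, but 42.8% of all genes then did, so the share of members rose along with the share of all genes. DESeq2 also called 7 members, against 21.9% of all genes.

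**Figure D1:**
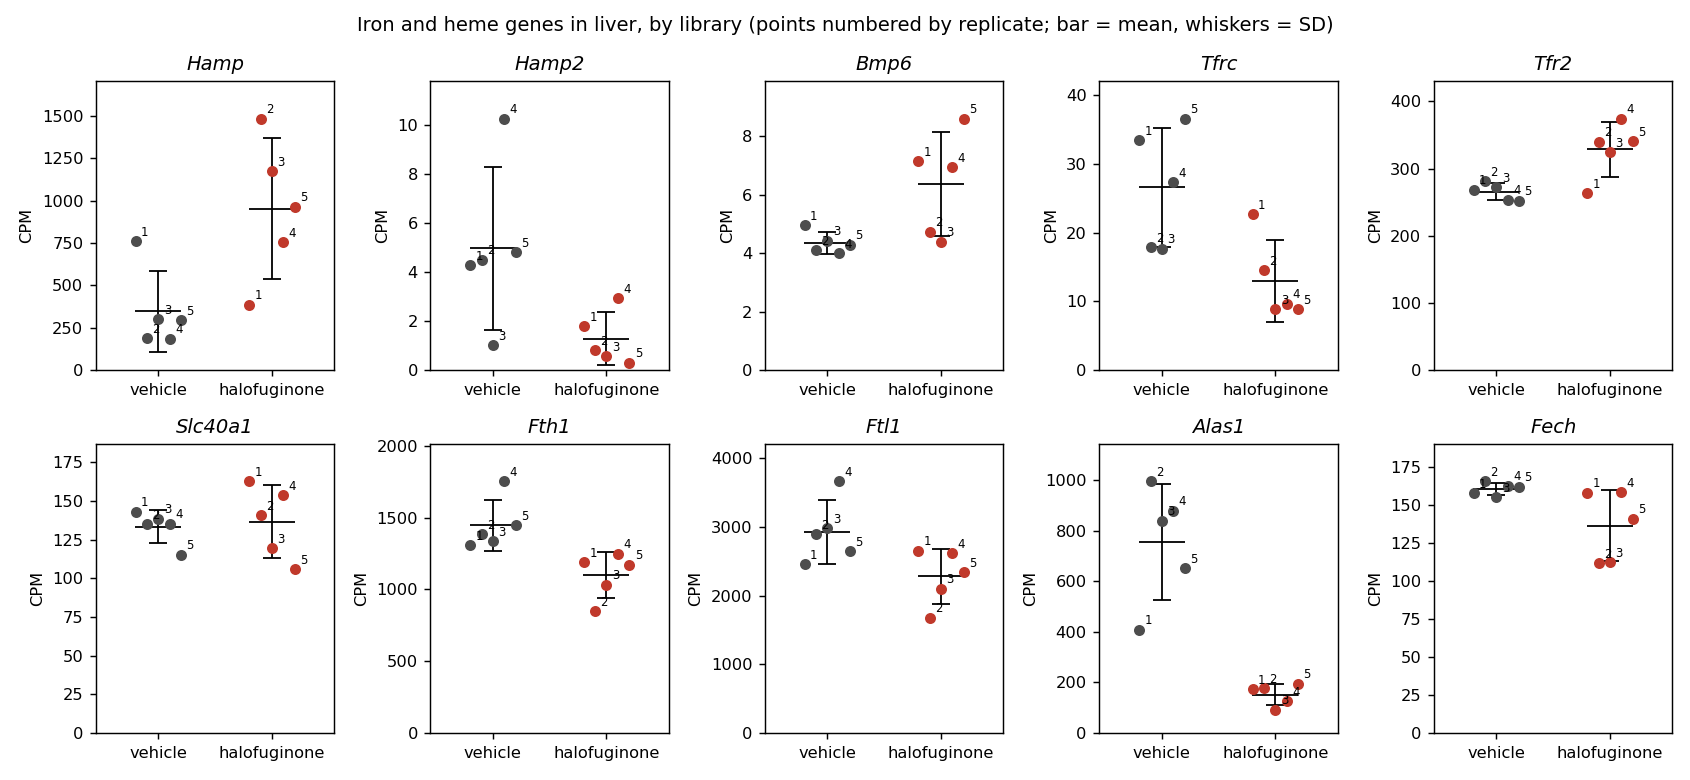
CPM of each of the 10 genes in every liver library, on axes that start at 0. Points are single libraries numbered by replicate, bars are means and whiskers SDs of 5 libraries a group. Alas1 lay at 408 to 995 CPM with vehicle and at 91.2 to 194.6 with halofuginone, and the Hamp groups overlapped through vehicle 1, which was above halofuginone 1 and 4.

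Hamp encodes the hepcidin that is active in mice. It stood at 761.5, 188.3, 301.0, 185.2 and 296.0 CPM in vehicle livers 1 to 5. In halofuginone livers 1 to 5 it stood at 386.1, 1483, 1174, 754.1 and 964.9 CPM. The groups overlapped through vehicle 1, which was above halofuginone 1 and 4, and the other 4 vehicle libraries were below every halofuginone library. Hamp was 2.75-fold higher with halofuginone (log2 fold change 1.46, SE 0.44, edgeR adjusted p = 0.0354). The call was close to the threshold. It held without vehicle 1 (log2 fold change 1.97, adjusted p = 0.0136) or halofuginone 1 (1.63, adjusted p = 0.00792), and leaving out any of the other 8 libraries gave edgeR adjusted p of 0.0573 to 0.0873, with fold changes of 1.22 to 1.51 in the same direction. In bulk tissue, more cells of a type and more RNA per cell cannot be told apart.

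Hamp2 encodes a second mouse hepcidin whose part in iron control is not established. Vehicle livers held 4.28, 4.51, 1.03, 10.3 and 4.82 CPM, and halofuginone livers 1.79, 0.820, 0.572, 2.93 and 0.298 CPM. Most vehicle values were above every halofuginone value, and vehicle 3 was inside the treated range. Hamp2 fell 3.94-fold (log2 fold change -1.98, SE 0.62, edgeR adjusted p = 0.0404). This call was lost in 7 of the 10 fits that left out a library, with adjusted p of up to 0.103, and in 1 fit of all 4 groups (adjusted p = 0.0586). Of the 50-base stretches of the Hamp transcript, 16.6% also occur in Hamp2, and 15.5% the other way. How the authors' counting split reads between them is not given, so both values are uncertain to that extent, Hamp2 more so because its counts are the lower.

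Bmp6, the ligand that tells hepatocytes of iron stores, did not pass the test. It was at 4.95, 4.11, 4.43, 3.99 and 4.29 CPM with vehicle and at 7.15, 4.73, 4.40, 6.94 and 8.60 CPM with halofuginone. Treated livers 1, 4 and 5 were above all vehicle livers, and treated livers 2 and 3, which had the highest Hamp, were inside the vehicle range. The log2 fold change was 0.55 (SE 0.19, edgeR adjusted p = 0.0526), and DESeq2 gave an adjusted p of 0.0393. Bmp6 passed in 2 of the 10 fits that left out a library and in 3 of the 7 other fits.

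Of 21 tested genes of BMP signalling and hepcidin control, 4 rose (Bmp2, Smad7, Id1 and Fkbp1a) and 1 fell (Il6ra), with a median log2 fold change of 0.056 against 0.017 over all genes. These 5 of 21 are close to the 23.2% of all genes that passed. Id1, a direct SMAD target often read as a gauge of BMP signalling, was at 13.7, 5.01, 10.2, 6.12 and 7.54 CPM with vehicle and at 13.3, 23.7, 26.4, 24.5 and 32.3 CPM with halofuginone. Its log2 fold change was 1.50 (SE 0.29, edgeR adjusted p = 0.00803). Id1 passed in all 10 fits that left out a library, and the groups met only in vehicle 1, which was above halofuginone 1. Bmp2, a second endothelial ligand of this pathway, rose by less (0.38, SE 0.091, adjusted p = 0.0179), with all treated livers above all vehicle livers. Fkbp1a, which encodes a protein that holds BMP type I receptors inactive, rose by 0.47 on the log2 scale (SE 0.15, adjusted p = 0.0413), and kept its call in 1 of the 10 fits that left out a library. Il6ra, the interleukin-6 receptor chain, fell by 0.92 (SE 0.27, adjusted p = 0.0312) and kept its call in 4 of 10. Erfe, the erythroid hormone that lowers hepcidin, was at 0 in every liver library. Without halofuginone 1 the counts were 4 higher and 4 lower, where 42.8% of all genes passed.

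Genes of the acute phase response, which interleukin-6 also drives, moved with Hamp in part of the treated livers. Their summed level over 10 genes was 13860 to 22680 CPM with vehicle and 12030, 79790, 32140, 25320 and 24590 CPM in halofuginone 1 to 5. The sum was above every vehicle liver in halofuginone 2 to 5. Of the 10 genes tested 3 passed, against 23.2% of all genes, and 7 had an unadjusted p under 0.05 in edgeR, against 39.1%. All of these were higher. Saa1, which defines the response, was at 57.1 to 352.9 CPM with vehicle and at 38.2, 5790, 1036, 69.2 and 37.3 CPM with halofuginone. Halofuginone 2 had the highest Saa1, sum and Hamp, and halofuginone 1 the lowest sum of all 10 livers and the lowest Hamp of its group. Saa1 and the sum differed in halofuginone 4 and 5, where the sum was above the vehicle range and Saa1 was not. The summed endothelial markers were at 411.1 to 473.8 CPM with vehicle and 416.3 to 531.3 with halofuginone. Of the 10, 2 passed as higher and 3 as lower, against 23.2% of all genes. The hepatocyte marker sum was lower in every treated liver than in any vehicle liver. Of its 8 genes, 1 passed as higher and 1 as lower, close to the 23.2% of all genes. At an unadjusted p under 0.05 in edgeR, 1 was higher and 4 lower, against 39.1% of all genes. The part of these 3 marker lists in the Hamp result was not tested.

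**Figure D2:**
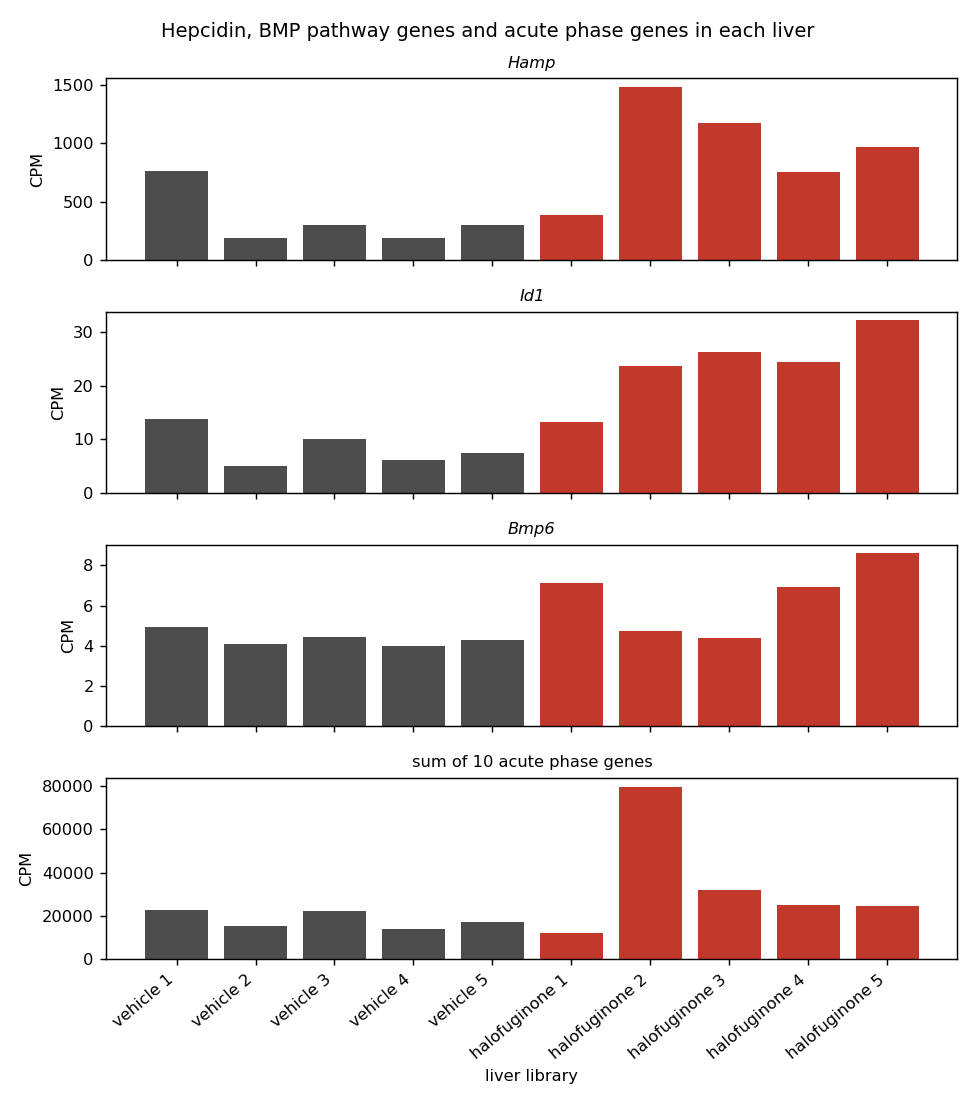
CPM of Hamp, Id1 and Bmp6, and the sum of 10 acute phase genes, in each of the 10 liver libraries (grey vehicle, red halofuginone). Hamp and Id1 were both high in halofuginone 2 to 5, whereas the acute phase sum peaked in halofuginone 2 at 79790 CPM and Bmp6 in halofuginone 5 at 8.60 CPM.

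Tfrc, the receptor through which most cells take up transferrin-bound iron, was at 33.4, 17.9, 17.7, 27.4 and 36.6 CPM in vehicle livers. Halofuginone livers held 22.7, 14.5, 8.90, 9.64 and 8.86 CPM. Treated livers 2 to 5 were below every vehicle liver, and treated liver 1 was inside the vehicle range. Tfrc fell 2.07-fold (log2 fold change -1.05, SE 0.30, edgeR adjusted p = 0.0305). Without halofuginone 1 the fall was 1.37 on the log2 scale (adjusted p = 0.00143), and 6 of the 10 fits that left out a library lost the call, as did 1 fit of all 4 groups (adjusted p up to 0.0778 and 0.0664).

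Tfr2, a hepatocyte sensor of transferrin saturation, was at 252.4 to 281.3 CPM with vehicle and at 263.4, 340.2, 324.1, 374.3 and 341.3 CPM with halofuginone. Treated livers 2 to 5 were above all vehicle livers. The log2 fold change was 0.31 (SE 0.11, edgeR adjusted p = 0.0685). It became 0.35 (adjusted p = 0.00867) without halofuginone 1, and DESeq2 gave an adjusted p of 0.0227. The edgeR fit of all 4 groups gave an adjusted p of 0.547. Tfr2 passed in 1 of the 10 fits that left out a library and in 3 of the 7 other fits. Slc40a1, the exporter, was at 115.3 to 143.2 CPM with vehicle and 105.8 to 162.7 with halofuginone. Its groups overlapped fully and its log2 fold change was 0.03 (SE 0.13, adjusted p = 0.873), with a sign that turned without halofuginone 1 (-0.061).

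The ferritin chains, which build the shell that stores iron, were lower by similar amounts, and neither passed the test. Fth1, the heavy chain with ferroxidase activity, was at 1309, 1385, 1335, 1752 and 1449 CPM with vehicle and at 1189, 847.2, 1034, 1248 and 1173 CPM with halofuginone. The groups did not overlap, yet the gap was narrow (log2 fold change -0.40, SE 0.15, edgeR adjusted p = 0.0748). DESeq2 (adjusted p = 0.0170) and the edgeR fit without halofuginone 1 (0.0330) put Fth1 past the threshold. It passed in 1 of the 10 fits that left out a library and in 1 of the 7 other fits. Ftl1, the light chain, was at 2457 to 3663 CPM with vehicle and 1680 to 2655 with halofuginone (log2 fold change -0.36, SE 0.18, adjusted p = 0.151). Its value carries a further limit, since 78.9% of its 50-base stretches also occur in 15 other annotated genes, among them ferritin pseudogenes.

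Among 16 tested genes of iron uptake, transport and storage, 3 rose and 0 fell in liver, against 23.2% of all genes called, with a median log2 fold change of 0.00 against 0.017. Steap2, a ferrireductase, was at 3.90 to 4.96 CPM with vehicle and 5.95 to 9.95 with halofuginone, with no overlap (0.73, SE 0.15, adjusted p = 0.0101). Slc25a37, the mitochondrial iron importer mitoferrin-1, rose by 0.45 (SE 0.13, adjusted p = 0.0328) and kept its call in 3 of the 10 fits that left out a library. Lcn2, which binds iron-carrying siderophores and belongs to the acute phase, was at 26.7 to 134.4 CPM with vehicle and at 20.2, 2985, 798.4, 120.9 and 182.5 CPM with halofuginone. Its log2 fold change of 3.78 (SE 1.10, adjusted p = 0.0319) came mainly from halofuginone 2 and 3, and its lowest value of all 10 livers was in halofuginone 1. Leaving out 1 library gave fold changes of 2.21 to 4.31, and 4 of the 10 such fits kept the call. Without halofuginone 1 the list had 4 higher and 3 lower, against 42.8% of all genes.

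Of the 7 genes that sense iron and oxygen, 6 passed in liver, 2 higher and 4 lower, against 23.2% of all genes, with a median log2 fold change of -0.49. Aco1 encodes iron regulatory protein 1, 1 of the proteins that bind the elements printed above. It was at 153.9 to 196.7 CPM with vehicle and at 154.6, 74.2, 87.6, 108.7 and 100.5 CPM with halofuginone (-0.78, SE 0.18, adjusted p = 0.0144). Only treated liver 1 was inside the vehicle range. Ireb2, which encodes iron regulatory protein 2, was the gene of this list that did not pass (0.08, SE 0.10, edgeR adjusted p = 0.592). Epas1, or HIF-2 alpha, whose messenger RNA is known to carry a variant element that the pattern above does not match, fell by 0.65 (SE 0.21, adjusted p = 0.0418), and Hif1a rose by 0.56 (SE 0.12, adjusted p = 0.0111). The oxygen sensor Egln3 fell by 0.87 (SE 0.24, adjusted p = 0.0271). With 1 library left out, Aco1 and Hif1a kept their calls in all 10 fits, Egln3 in 4 and Epas1 in 1. Without halofuginone 1 the list again had 2 higher and 4 lower, against 42.8% of all genes.

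Alas1, the rate-limiting enzyme of heme synthesis in liver, passed the test with the lowest adjusted p of the 10 genes. Vehicle livers held 408.0, 995.2, 840.6, 879.6 and 652.6 CPM, and halofuginone livers 172.2, 177.0, 91.2, 124.4 and 194.6 CPM. All treated livers, liver 1 included, were below all vehicle livers, and the lowest vehicle value was in vehicle 1. Alas1 fell 4.97-fold (log2 fold change -2.31, SE 0.27, edgeR adjusted p = 0.00147). It passed in all 10 fits that left out a library (-2.47 to -2.17) and in all 7 other fits. Fech, the last enzyme, was at 155.4 to 165.8 CPM with vehicle and at 158.4, 111.9, 112.4, 158.8 and 141.2 CPM with halofuginone. Treated livers 2, 3 and 5 were below the vehicle range (-0.24, SE 0.12, adjusted p = 0.168), and Fech passed without halofuginone 1 (-0.32, adjusted p = 0.0439). That was 1 of the 10 fits that left out a library, and Fech passed in 0 of the 7 other fits.

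Of the 12 other genes of heme synthesis, 4 fell and 0 rose in liver, against 23.2% of all genes called, with a median log2 fold change of -0.40 against 0.017. Alas2, the erythroid synthase, was at 79.9, 103.9, 96.0, 87.2 and 79.9 CPM with vehicle and at 56.7, 21.3, 33.8, 41.2 and 51.8 CPM with halofuginone. The groups did not overlap (-1.13, SE 0.22, edgeR adjusted p = 0.00908). Alad, which makes porphobilinogen, fell by 0.64 (SE 0.12, adjusted p = 0.00768). Cpox, the mitochondrial coproporphyrinogen oxidase, was at 157.5 to 210.4 CPM with vehicle and 67.3 to 143.6 with halofuginone (-0.91, SE 0.18, adjusted p = 0.0102), again with no overlap. Tmem14c, which carries a porphyrin into the mitochondrial matrix, fell by 0.36 (SE 0.11, adjusted p = 0.0357) and kept its call in 3 of the 10 fits that left out a library, where Alas2, Alad and Cpox kept theirs in all 10. Of the enzymes that did not pass, Uros was at 0.32 (SE 0.15), Urod at -0.31 (SE 0.12) and Ppox at 0.22 (SE 0.11). Without halofuginone 1 the counts were 7 lower and 1 higher, against 42.8% of all genes. The hepatocyte marker sum given above was lower in all treated livers as well, and its part in the Alas1 and heme synthesis results was not tested.

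Alas2 is also a marker of erythroid cells, so the other markers of those cells are given beside it. The 4 adult globin genes summed to 41.8 to 161.7 CPM with vehicle and 24.8 to 101.2 with halofuginone. Of 5 erythroid genes tested, Alas2 was the 1 that passed, close to the 23.2% of all genes. Markers of Kupffer cells, the liver macrophages that recycle red cells, summed to 607.8 to 865.3 CPM with vehicle and 585.8 to 1117 with halofuginone. None of the 12 had an unadjusted p under 0.05 in edgeR, against 39.1% of all genes. The part of red cell precursors in the Alas2 result was not tested.

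**Figure D3:**
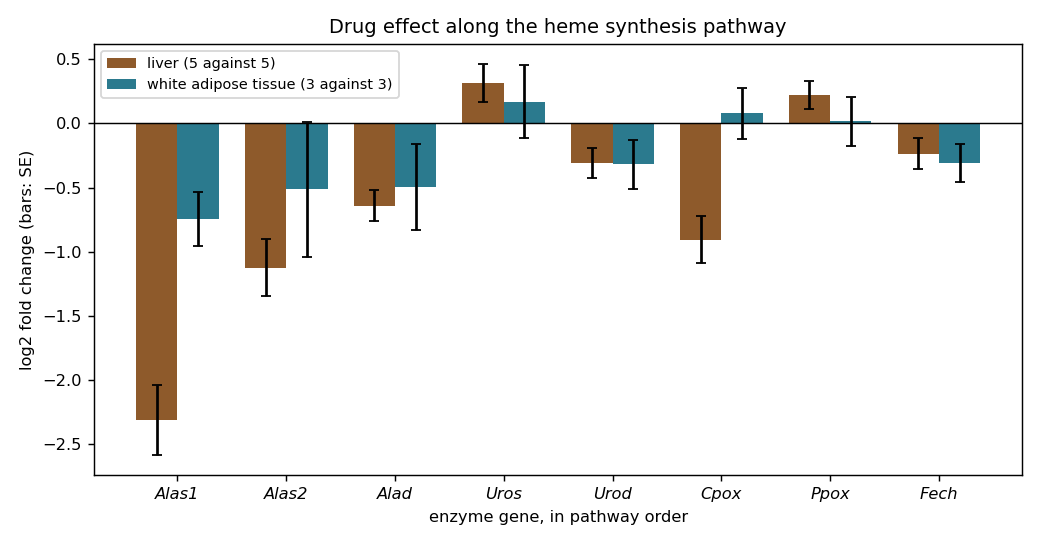
Log2 fold change, halofuginone over vehicle, of 8 enzyme genes of heme synthesis in pathway order, in liver (brown) and white adipose tissue (blue); bars from 0, whiskers are standard errors. In liver Alas1, Alas2, Alad and Cpox passed the test and lay at -0.64 to -2.31, while no fat value passed.

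Genes that capture, break down or export heme moved both ways in liver. Of 12 tested, 3 rose (Hmox2, Hpx and Cd163) and 1 fell (Blvrb), against 23.2% of all genes called, with a median of 0.042. Hpx, the plasma heme carrier hemopexin, was at 3119 to 4160 CPM with vehicle and at 3104, 21010, 11330, 8070 and 8591 CPM with halofuginone (1.47, SE 0.40, edgeR adjusted p = 0.0247). Treated livers 2 to 5 were above all vehicle livers. Cd163, the macrophage receptor for haptoglobin-bound hemoglobin, rose by 0.78 (SE 0.21, adjusted p = 0.0255), and Hmox2, the constitutive heme oxygenase, by 0.64 (SE 0.14, adjusted p = 0.0122). Blvrb, a biliverdin reductase, fell by 0.50 (SE 0.14, adjusted p = 0.0274). With 1 library left out, Hmox2 kept its call in all 10 fits, Hpx in 6, Cd163 in 5 and Blvrb in 4. Without halofuginone 1 there were 4 higher and 3 lower, against 42.8% of all genes.

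Iron-sulfur clusters, the other large use of mitochondrial iron, gave 2 higher and 3 lower of 14 genes tested, against 23.2% of all genes called. The median log2 fold change of the list was -0.02. Hspa9, the mitochondrial chaperone mortalin, was at 554.4 to 596.9 CPM with vehicle and at 527.7, 1133, 1306, 1376 and 1451 CPM with halofuginone. Its log2 fold change was 1.00 (SE 0.23, edgeR adjusted p = 0.0154), and treated liver 1 was the 1 below the vehicle range. The cysteine desulfurase Nfs1 fell by 0.46 (SE 0.097, adjusted p = 0.0105) and the glutaredoxin Glrx5 by 0.43 (SE 0.13, adjusted p = 0.0384). Nfu1, a cluster carrier, rose by 0.37 (SE 0.12, adjusted p = 0.0404). With 1 library left out, Hspa9 and Nfs1 kept their calls in all 10 fits, Glrx5 in 3 and Nfu1 in 1. Without halofuginone 1 the list had 4 higher and 3 lower, against 42.8% of all genes. Over the 6 pathway lists 27 of 82 genes passed (32.9%, against 23.2% of all genes), 14 higher and 13 lower.

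On the length-scaled FPKM values, which allow levels of genes to be compared, vehicle livers were led by Ftl1 at 2874 ± 522 (SD, n = 5) and Fth1 at 1620 ± 241. Hamp followed at 800.2 ± 552 and Alas1 at 624.8 ± 193, which did not differ beyond their spread. Tfr2 (84.9 ± 2.62), Fech (72.0 ± 2.15) and Slc40a1 (38.2 ± 3.08) came next, each apart from its neighbours. Hamp2 (11.4 ± 7.99), Tfrc (5.25 ± 1.71) and Bmp6 (1.21 ± 0.110) were lowest, and the ranges of Hamp2 and Tfrc overlapped. With halofuginone Hamp averaged 2502 ± 1199 and lay level with Ftl1 at 2471 ± 341, while Alas1 averaged 135.0 ± 38.7.

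Within groups, the genes whose log2 CPM varied most like Hamp across the 10 livers were Zfp386 (Pearson r = 0.969), Fmr1 (0.956) and Ccnc (0.949). For Tfrc they were Igtp (0.969), Kank1 (0.955) and Pdzrn3 (0.935), and for Alas1 they were Sptan1 (0.909), Jcad (0.882) and Stat6 (0.878). These are the highest of 8817 genes, over libraries that share depth and group differences in state, and are given as a description.

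In white adipose tissue none of the members passed the test, and Hamp and Hamp2 were not expressed at a measurable level. Hamp had 1 count in vehicle 2 and 0 in the other 5 libraries, and Hamp2 had 0 in all 6, where 3 counts would be 0.140 to 0.176 CPM. Of the 8 members tested by edgeR, 0 passed, as did 0 of all 14030 genes (0%), with a lowest adjusted p of 0.0887. At an unadjusted p under 0.05 there were 3 members, all lower (Tfr2, Slc40a1 and Alas1), against 13.4% of all genes. In 4 members, these 3 and Fech, all treated libraries were below all vehicle libraries, against 20.6% of all genes with groups that did not overlap. DESeq2 called 2 members (Tfr2 and Alas1) and 3.62% of all genes, and 1 fit of all 4 groups called 2 (Tfr2 and Slc40a1) and 2.25%.

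**Figure D4:**
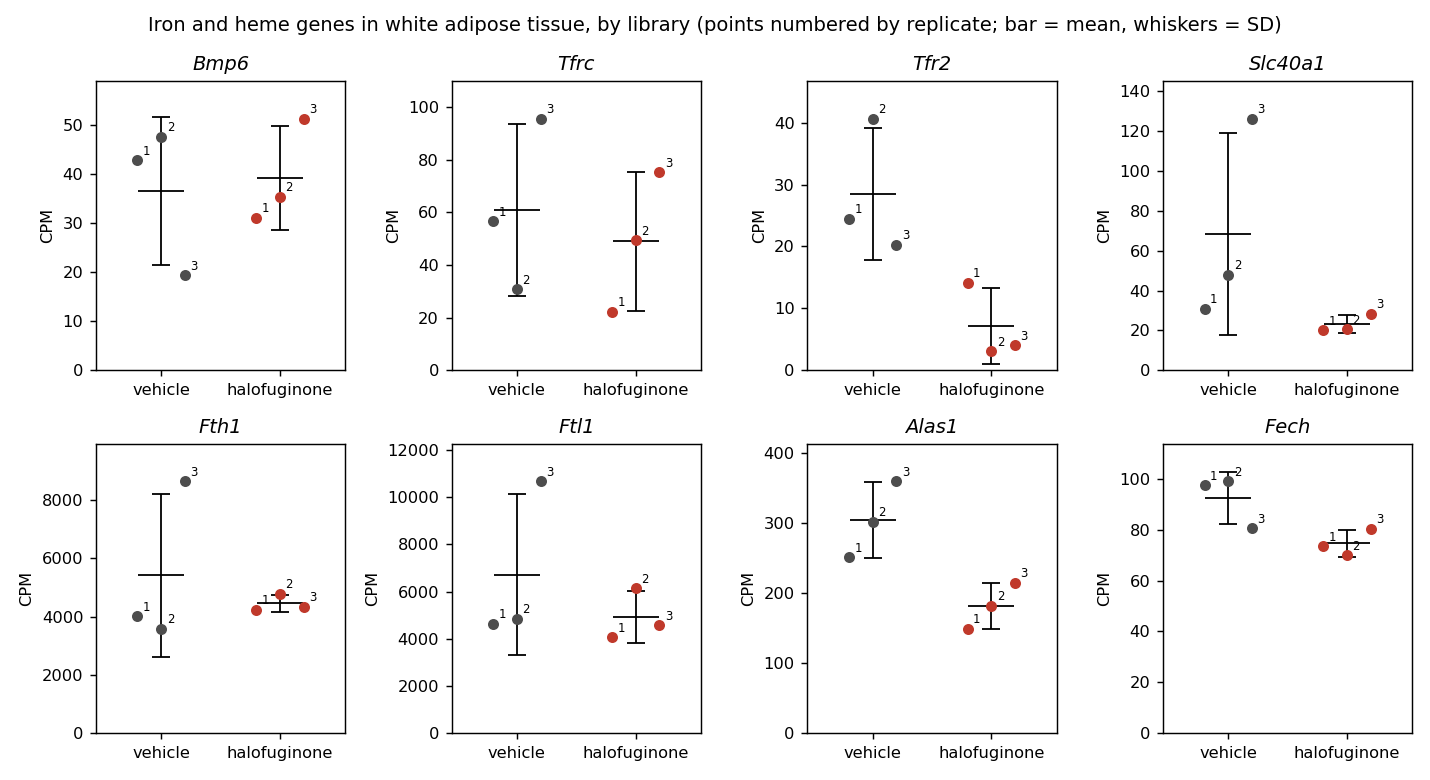
CPM of the 8 members tested in fat, in each of the 6 libraries, on axes that start at 0. Points are numbered by replicate, bars are means and whiskers SDs of 3 libraries a group. Tfr2, Slc40a1, Alas1 and Fech had every treated point below every vehicle point, and vehicle 3 was the highest point for Fth1, Ftl1 and Slc40a1.

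Tfr2 was at 24.5, 40.6 and 20.3 CPM in vehicle fat and at 14.1, 3.07 and 4.05 CPM with halofuginone. The log2 fold change was -2.01 (SE 0.61, edgeR adjusted p = 0.261; unadjusted 0.0135). Treated libraries 2 and 3 were far below the vehicle range and treated 1 just below it. DESeq2 gave an adjusted p of 0.0269 and the fit of all 4 groups 0.0226. Tfr2 passed in 2 of the 7 fits by other settings and in 0 of the 6 that left out a library.

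Slc40a1, by which fat macrophages and other cells let iron out, was at 30.8, 48.0 and 126.2 CPM with vehicle and at 20.2, 20.7 and 28.4 CPM with halofuginone (-1.57, SE 0.51, edgeR adjusted p = 0.284). The groups did not overlap, and vehicle 3 was far above the rest. Without vehicle 3 the log2 fold change was -0.77 (adjusted p = 0.330). Macrophage markers moved with it: their sum was 5517 to 10630 CPM with vehicle and 3347 to 3848 with halofuginone. The highest sum was in vehicle 3, and vehicle 1 and 2 were at 6391 and 5517 CPM. All 10 markers tested were lower at an unadjusted p under 0.05 in edgeR, against 13.4% of all genes in either direction. Clec4f, a Kupffer cell marker, was at or under 3 counts in all 6 libraries. The part of macrophage number in the Slc40a1 value was not tested.

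Alas1 was at 250.7, 301.6 and 359.0 CPM in vehicle fat and at 148.6, 181.8 and 214.3 CPM with halofuginone. All treated values were below all vehicle values, and the log2 fold change was -0.74 (SE 0.21, edgeR adjusted p = 0.233). DESeq2 gave an adjusted p of 0.0360. Alas1 passed in 1 of the 7 fits by other settings and in 0 of the 6 that left out a library. Fech was at 80.7 to 99.0 CPM with vehicle and 70.1 to 80.4 with halofuginone (-0.31, SE 0.15, adjusted p = 0.427). The adipocyte marker sums overlapped, at 11430 to 21990 CPM with vehicle and 18260 to 21910 with halofuginone.

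The ferritins, Tfrc and Bmp6 had values in fat whose sign turned without vehicle 3. Fth1 was at 4013, 3576 and 8642 CPM with vehicle and at 4231, 4788 and 4342 CPM with halofuginone, with log2 fold changes of -0.28 (SE 0.36) with vehicle 3 and 0.23 without it. For Ftl1, with 4626 to 10670 CPM in vehicle fat, the value went from -0.45 (SE 0.38) to 0.057. Tfrc was at 56.6, 30.7 and 95.5 CPM with vehicle and at 22.2, 49.4 and 75.2 CPM with halofuginone, and its value went from -0.32 (SE 0.53) to 0.17. Bmp6, at 42.7, 47.5 and 19.3 against 31.1, 35.4 and 51.2 CPM, went from 0.10 (SE 0.36) to -0.20. Tfrc also turned without halofuginone 1 (0.032) and Bmp6 without halofuginone 3 (-0.122). With all 6 libraries the edgeR adjusted p of these 4 genes was 0.661 to 0.936.

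None of the 81 pathway genes tested in fat passed in edgeR. At an unadjusted p under 0.05 there were 16 (19.8%), 9 higher and 7 lower, against 13.4% of all genes, and DESeq2 called 6. Heme capture and breakdown had 5 of 12 at that level, all lower, with a median log2 fold change of -0.70 against 0.012 over all genes. Hmox1, the inducible heme oxygenase, was at 188.2, 192.1 and 790.8 CPM with vehicle and 97.4, 156.0 and 133.5 with halofuginone, the highest value again in vehicle 3. Slc48a1, which moves heme out of lysosomes and endosomes, was at 365.5 to 492.9 against 191.6 to 225.9 CPM (-1.02, SE 0.18, adjusted p = 0.130), and Blvrb and Slc46a1 were at -1.22 (SE 0.35) and -1.11 (SE 0.29). Without vehicle 3, Hmox1 went from -1.60 (SE 0.59) to -0.56 and Blvrb to -0.71. The macrophage marker sums given above moved with this list, and their part was not tested. Without vehicle 3 the list had 4 of 11 lower at that level and a median of -0.41.

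In BMP signalling and hepcidin control, 3 of 19 genes were higher and 1 lower at an unadjusted p under 0.05 in fat, against 13.4% of all genes. Without vehicle 3 the list had 1 higher and 2 lower. Hfe, which encodes a hepcidin regulator bound to transferrin receptors, was at 151.4, 177.3 and 118.7 CPM with vehicle and at 53.2, 37.6 and 59.0 CPM with halofuginone (-1.58, SE 0.24, adjusted p = 0.105). Id1 was at 58.1, 48.2 and 12.6 CPM against 129.1, 113.1 and 83.2 CPM (1.45, SE 0.52, adjusted p = 0.314). The inhibitory SMAD genes were higher on average, Smad7 by 1.21 (SE 0.39) and Smad6 by 0.96 (SE 0.38) on the log2 scale. For Hfe and Id1 no treated library was inside the vehicle range, and the lowest Id1 value was in vehicle 3. With 1 library left out, the log2 fold change ran from -1.72 to -1.38 for Hfe and from 1.03 to 1.84 for Id1. It ran from 1.00 to 1.54 for Smad7 and from 0.66 to 1.17 for Smad6.

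Iron transport in fat had 4 of 17 genes higher and 0 lower at an unadjusted p under 0.05, against 13.4% of all genes. Without vehicle 3 it had 3 higher and 1 lower. Cp, the ferroxidase ceruloplasmin that works beside ferroportin, was at 141.3, 113.5 and 154.5 CPM with vehicle and at 319.0, 308.8 and 331.6 CPM with halofuginone (1.23, SE 0.17, adjusted p = 0.0954). The groups were well apart. On the log2 scale Steap4 differed by 0.64 (SE 0.24), Slc25a37 by 0.69 (SE 0.27) and Slc25a28 by 0.43 (SE 0.17). Iron-sulfur assembly had 2 of 14 genes higher, and 1 without vehicle 3. These 2 were Hspa9 (433.2, 395.6 and 409.3 against 1163, 1155 and 873.0 CPM, 1.37, SE 0.18, adjusted p = 0.0954) and Lyrm4 (0.50, SE 0.20). Heme synthesis had 1 of 12, Abcb6, a porphyrin transporter (-0.63, SE 0.19, adjusted p = 0.255), with a list median of -0.06.

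On the FPKM scale vehicle fat held Ftl1 at 6711 ± 3182 (SD, n = 3) and Fth1 at 6089 ± 2984, which did not differ beyond their spread. Alas1 was next at 231.1 ± 38.1, then Fech at 40.1 ± 5.78. Slc40a1 (19.6 ± 13.9), Tfrc (12.0 ± 6.06), Bmp6 (10.04 ± 4.41) and Tfr2 (9.41 ± 3.89) overlapped with one another. The tables of the 2 tissues were deposited separately, so a level is not compared between them.

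The drug effects in the 2 tissues were compared by fitting all 16 libraries together and taking the fat log2 fold change minus that of liver. Tfr2 was the 1 of 8 members tested that passed, against 0.949% of all genes. Its difference was -2.34 (SE 0.52, edgeR adjusted p = 0.0478), from 0.31 in liver and -2.01 in fat. This call was lost in 14 of the 16 fits that left out a library (adjusted p up to 0.0940) and with DESeq2 size factors (0.0526). Alas1 differed by 1.56 (SE 0.40, adjusted p = 0.0712), from -2.31 in liver to -0.74 in fat. Slc40a1 differed by -1.60 (SE 0.44, adjusted p = 0.0916), and by -0.84 without fat vehicle 3. The differences of Bmp6 (-0.47, SE 0.39), Tfrc (0.73, SE 0.59), Fth1 (0.11, SE 0.35), Ftl1 (-0.10, SE 0.38) and Fech (-0.09, SE 0.20) did not pass. Hamp and Hamp2 were not compared, since fat held at most 1 count of them.

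**Figure D5:**
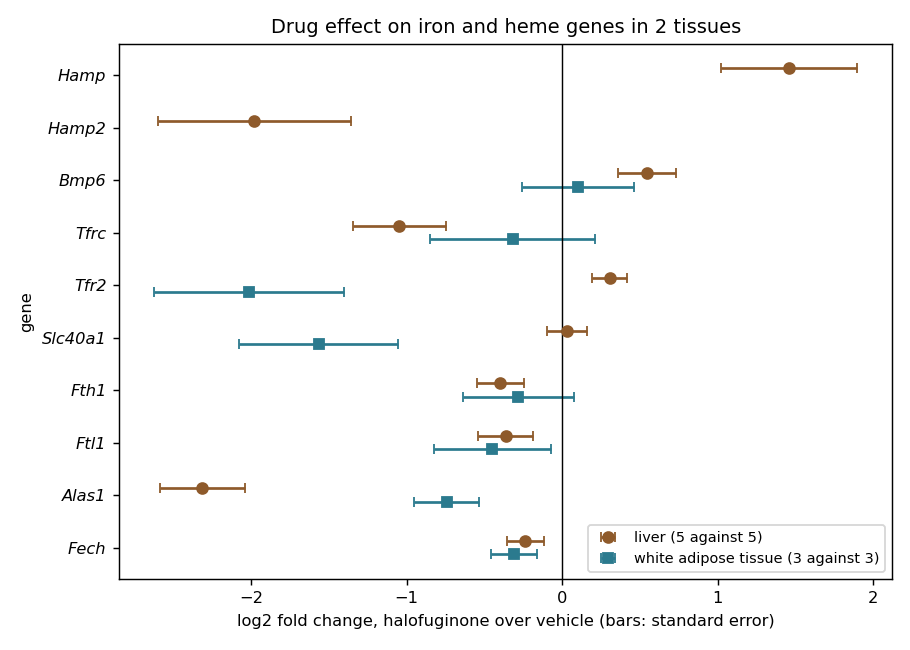
Log2 fold change, halofuginone over vehicle, of each gene in liver (brown circles) and white adipose tissue (blue squares), with standard errors as bars. Tfr2 lay at 0.31 in liver and at -2.01 in fat, and Alas1 lay below 0 in both tissues.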

How the data were processed

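Messenger RNA of liver and white adipose tissue was captured on oligo(dT) beads and sequenced, per the labels' protocols. The authors deposited 1 table per tissue with counts and FPKM per library, per the file headers. The deposited counts are whole numbers, but 1 to 31 genes in a library show FPKM above 0 where the count is 0, and they are treated as estimated counts that may have been rounded. The submitters' processing notes name fastp 0.18.0, Bowtie2 2.2.8, HISAT2, StringTie 1.3.1, RSEM and mm39, without roles. Whether counting used strand is not given in the sources used here.

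The quasi-likelihood test of edgeR 4.0.16 (R 4.3.3) was run per tissue, after filterByExpr and TMM scaling, two-sided and without a replicate block. All genes tested entered the Benjamini-Hochberg adjustment, and the scripts were tested on simulated data. A standard error is the absolute log2 fold change over the root of F. The alternatives were DESeq2 1.42.0, other scalings, no filter, limma 3.58.1 on log2(FPKM + 1), 1 fit of all 4 groups, a replicate block, and each library left out. Named were all members, up to 4 genes of each list that passed in liver and up to 4 with an unadjusted p under 0.05 in fat by size of change, and for Hamp, Tfrc and Alas1 the 3 genes most alike in liver; other genes named singly were chosen after their values were seen. The members, lists and tests were chosen with earlier results of these data known. Coordinates are those of GRCm38 reference tables, not of the deposited files. Some items are not reported here. Floors cover counting error only, whereas standard errors and SDs also hold the spread between libraries.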

Additional observations from a re-analysis of the deposited data

Results flagged for a closer look

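Hamp in the vehicle liver 1 stood far from its group, at 761.5 CPM against 301.0 CPM in the next library. The gap took a share of 0.799 of the group's range, above the 5-sample limit of 0.71 in Dixon's test. Lcn2, which encodes a siderophore-binding acute phase protein, was also far out in that library, at 134.4 CPM against 50.8 CPM in the next (share 0.777). In halofuginone liver 2 Lcn2 was at 2985 CPM against 798.4 CPM in the next (share 0.737). Chance alone sets about 1 in 20 groups apart in this way, which is 3.3 of the 66 groups examined, and 3 were found.

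The Tfr2 drug effect differed between tissues, as the fat log2 fold change minus that of liver of -2.34 (edgeR adjusted p = 0.0478), from the same fit as in the results above.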

How the results depend on the processing

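With 1 library left out, the liver count of 2850 genes ran from 1275 to 5312, that of members from 1 to 7 and that of pathway genes from 12 to 43, each highest without halofuginone 1. In fat the count of genes ran from 0 to 1. For the tissue difference the 141 genes ran from 34 to 1053 and the members from 0 to 2. Of single values, liver Slc40a1 ran from -0.061 to 0.11 and turned in sign, as did fat Bmp6 (-0.20 to 0.34), Tfrc (-0.75 to 0.17), Fth1 (-0.50 to 0.23) and Ftl1 (-0.65 to 0.057), and the tissue differences of Fth1 (-0.10 to 0.59) and Ftl1 (-0.30 to 0.37). The cause was not tested.

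DESeq2 called 7 liver members, 671 fat genes with 2 members and 6 pathway genes, and 685 genes with 3 members for the tissue difference. The 1 fit of all 4 groups called 2 liver members, 334 fat genes, 2 fat members and 7 fat pathway genes. In fat, limma on FPKM called 13 genes with 2 pathway genes, and no filter called 1 gene. With DESeq2 size factors in edgeR the tissue difference called 0 members. With library size alone, the liver median of all genes moved from 0.017 to 0.173, and calls were 2789 higher and 838 lower (76.9% higher, against 54.7%).

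The labels do not say that shared replicate numbers mark pairs. In deviations from group means, same-numbered libraries correlated at -0.156 to 0.0566 in liver and at -0.57 to 0.111 in fat. With so few libraries this cannot settle whether they were paired. With the replicate block 1901 liver genes and 3 liver members passed, 0 fat genes, and 20 genes with 0 members for the tissue difference. Hamp in liver (edgeR adjusted p = 0.0741) and the Tfr2 tissue difference (0.1335) lost their calls under the block. Of 1020 single-gene values under all alternatives, 831 kept direction and side of the threshold, 140 lost a call, 36 gained one and 13 turned.

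Depth limits Hamp2, with 0.298 to 10.3 CPM in liver, and leaves Hamp and Hamp2 below measurement in fat.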
